A study of Homo sapiens with 6 samples.

Results

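Actin filaments grow and shrink mainly at their barbed ends, where monomers bound to profilin are added and where capping protein stops further addition. Capping protein is a heterodimer of an alpha subunit (CAPZA1 or CAPZA2) and the beta subunit CAPZB, and the gelsolin-like protein CAPG caps the same ends as a monomer. In epithelial cells the cytoplasmic actins beta (ACTB) and gamma (ACTG1) build the cortex, the junctional belt and the core of microvilli. These genes and the monomer-handling genes CFL1, PFN1, TWF1 and TMSB10, 10 in all, were read in the HT-29 libraries described here. They are 10 of 27434 rows in the deposited tables and 10 of 13034 genes with enough counts to test. The set was chosen because CAPZB was low and ACTB high after HOXA-AS3 knockdown, so the values in the siHOXA-AS3 libraries that chose it are given as a description, with no test.

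HT-29 is an established human colorectal cancer cell line, a single line that carries the genome of 1 tumour. Cells received a pool of siRNAs against the lncRNA HOXA-AS3 (siHOXA-AS3), a pool against the lncRNA HOXB-AS3 (siHOXB-AS3) or a non-targeting control pool (siNT), and were harvested after 48 h. The labels give a dose of 10 nM for every pool, and the methods of the study give another dose and another RNA extraction reagent. Each of the 3 groups has 2 polyA RNA-seq libraries. No label says that they came from separate cultures, so the p-values measure only the spread between libraries, which may be technical.

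The libraries held 15998518 to 26263938 expected counts, the numbers of fragments that RSEM assigned to genes. HOXA-AS3 had counts of 38 and 18 in siNT, 12 and 12 in siHOXA-AS3, and 30 and 22 in siHOXB-AS3. HOXB-AS3 had counts of 303 and 213 in siNT, 263 and 208 in siHOXA-AS3, and 67 and 76 in siHOXB-AS3. Each lncRNA was thus lowest in the libraries labelled with its own siRNA, also in TPM (transcript level scaled by length and depth). HOXA-AS3 was near the floor, at 0.19 to 0.56 TPM. Neither fall passed 0.05 in the edgeR quasi-likelihood test. Its log2 differences from siNT were -1.09 for HOXA-AS3 (adjusted p = 0.71) and -1.96 for HOXB-AS3 (adjusted p = 0.068). Of 10 colon epithelial markers, 8 had a mean of at least 1 TPM, while CDX2 at 0.14 to 0.50 TPM and GPA33 at 0.07 to 0.85 TPM were nearly absent. The 9 fibroblast and muscle markers summed to 0.46 to 1.13 TPM over the 6 libraries, with COL1A2, DCN, PDGFRB and DES at 0 counts, and the 4 endothelial markers summed to at most 0.10 TPM. The 6 immune markers summed to 1008 to 1763 TPM, nearly all of it from LYZ, while PTPRC did not exceed 0.14 TPM. The siHOXA-AS3 libraries stood apart from each other, with 1746 genes at least 2-fold apart, against 328 in siNT and 282 in siHOXB-AS3, so values that rest on them are given with the libraries taken singly or left out.

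CAPZB (Entrez Gene 832), the only beta subunit gene of capping protein, lies on chromosome 1 from 19338776 to 19485539 on the minus strand (GRCh38, GENCODE v29). Its level was 202 and 193 TPM in siNT, 68.6 and 58.8 TPM in siHOXA-AS3, and 190.3 and 194 TPM in siHOXB-AS3. Both siHOXA-AS3 libraries lay far below the other 4, and the siNT and siHOXB-AS3 libraries overlapped. The siHOXA-AS3 mean was 32.2% of the siNT mean and the siHOXB-AS3 mean was 97.2% of it. On normalized counts the log2 difference of siHOXA-AS3 from siNT was -1.85 (standard error 0.159), which is 3.61-fold lower, and its rank was 24 from the lowest of the 13034 tested genes. Taken singly, siHOXA-AS3 replicate 2 gave -1.97 and replicate 1 gave -1.75. In siHOXB-AS3 the log2 difference from siNT was 0.01 (standard error 0.153, 95% interval -0.35 to 0.37, adjusted p = 0.99 from the edgeR quasi-likelihood fit, adjusted by Benjamini-Hochberg over all tested genes).

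**Figure D1:**
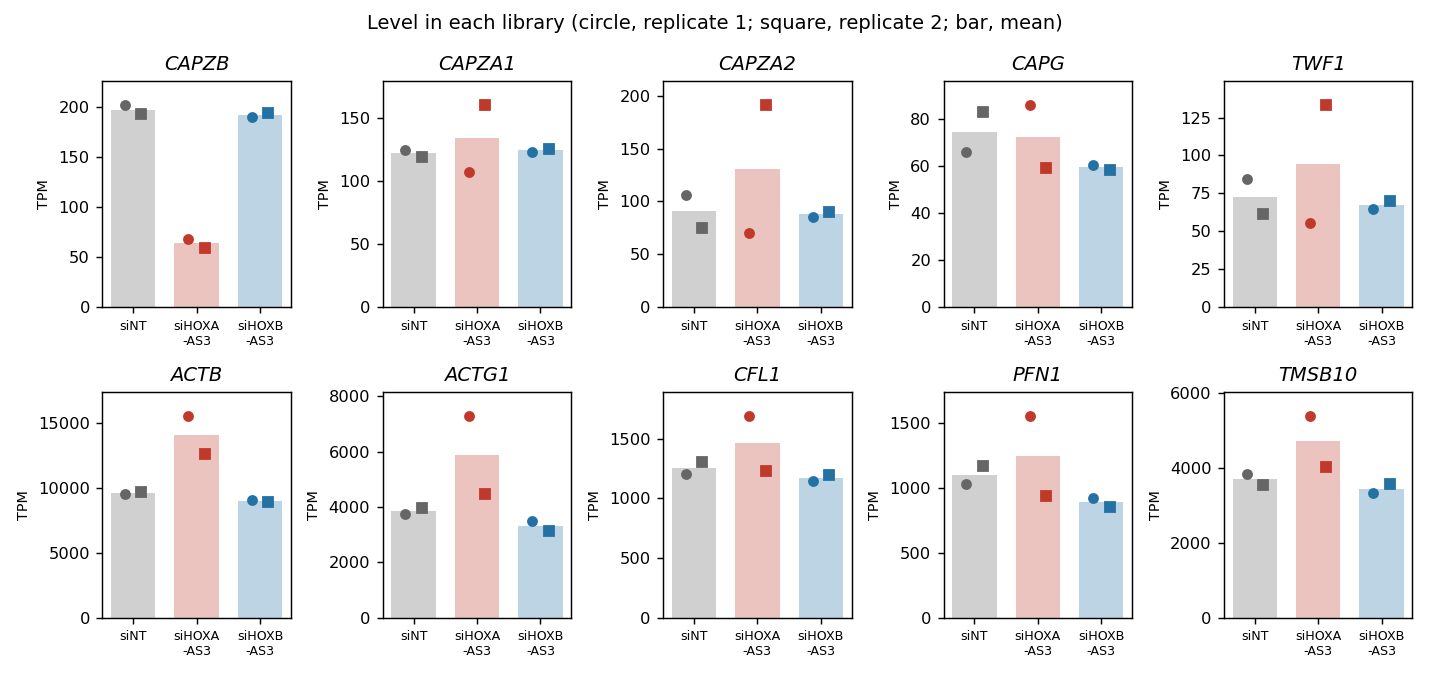
Level of each gene in TPM (vertical axes, each from 0) in the siNT, siHOXA-AS3 and siHOXB-AS3 libraries, with circles for replicate 1, squares for replicate 2 and bars for the mean of the 2 libraries. The siHOXA-AS3 libraries of CAPZB sit at 68.6 and 58.8 TPM, below all other libraries, whereas those of CAPZA2 (70.25 and 191 TPM) and TWF1 (55.5 and 133 TPM) lie on either side of siNT.

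CAPZB is spliced into several transcripts, and RSEM reports for each library the mean length of a gene's transcripts weighted by their abundance. This length was 1718 and 1704 nt in siNT, 1448 and 1546 nt in siHOXA-AS3, and 1656 and 1674 nt in siHOXB-AS3. It was thus shortest in both siHOXA-AS3 libraries. Normalized counts are not scaled by this length, while FPKM and TPM are. On FPKM the log2 difference of CAPZB in siHOXA-AS3 from siNT was -1.65 (standard error 0.166, limma-trend), against -1.85 on normalized counts. The row joins 5 RefSeq transcripts, of which 4 were matched to GENCODE models of 858, 1462, 1686 and 2068 nt. The share of each transcript was not analysed here.

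The siRNA sequences were compared with the transcripts because the pool is the treatment, and the entries that bear on CAPZB are shown. The supplement of the study lists 5 entries for the HOXA-AS3 pool, of which 4 are distinct, numbered here in the order listed. The seed of a guide strand, its bases 2 to 8, pairs with bases 12 to 18 of the listed strand, which are in capitals. The RNA letters of the siRNA are followed by 30-base windows of CAPZB on the transcript strand, with the run that the listed strand shares in capitals.
HOXA-AS3 siRNA 4: guagacagggcACUCGUUa
CAPZB, chr1:19339481-19339510 (GRCh38, minus strand): cagacacgccgtGCACTCGTTAgattcctt
CAPZB, chr1:19339457-19339486 (GRCh38, minus strand): ttcctttcttagaaaACTCGTTttctgctc
Both windows lie in the 3′ UTR of CAPZB, in 3 of the 4 matched transcripts, and the first shares a run of 10 bases with the siRNA. Of 11490 expressed coding genes, 4.60% hold the 7-base match anywhere in a transcript, 0.174% hold at least 2 in 1 transcript and 0.139% hold such a run of 10. For siRNAs 1, 2 and 3 the shares with at least 2 were 0.157%, 0.235% and 0.470%. Those with such a run of 10 were 0.0609%, 0.183% and 0.487%. As siRNA 4 was picked because CAPZB held its matches, its shares are not those of the whole pool. Over its full length the guide of siRNA 4 differed from CAPZB at 6 bases or more. CAPG was the other gene of the 10 with a guide seed match of this pool, a 7-base match of siRNA 2 in its coding region. Of the coding genes, 5.82% hold that match, and 4.85% hold the guide match of siRNA 1. The share of coding genes with a guide match of any siRNA of the pool was not computed. Nothing is therefore read from the count of 2 of the 10 genes. The log2 difference of CAPG in siHOXA-AS3 from siNT was -0.02 (standard error 0.264), with 0.28 for replicate 1 alone and -0.39 for replicate 2 alone. CAPZB-205, 1 of the 4 CAPZB transcripts, also held a 7-base guide match of siRNA 3 in its 5′ UTR, which 8.25% of the coding genes hold. The coding region of CAPZB held seed matches of the passenger strands of siRNAs 1 and 4. Passenger matches of this pool were in 4 of the 10 genes (CAPZA1, CAPZA2, CAPZB and PFN1), and those of the HOXB-AS3 pool in CAPG and CFL1. The share of all coding genes with a passenger match was not computed, so nothing is read from these counts. Guide seed matches of the HOXB-AS3 pool were in CAPZA1, CAPZA2 and TWF1, from siRNAs 2 and 3 of that pool, whose seed matches 45.6% and 35.8% of the coding genes hold. A match is a description of the sequence, and its part in the level was not tested.

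CAPZA1 (Entrez Gene 829; chromosome 1, 112619173 to 112671619, plus strand), an alpha subunit of capping protein, had 125 and 119 TPM in siNT, 107 and 160.2 TPM in siHOXA-AS3, and 123 and 125 TPM in siHOXB-AS3. CAPZA2 (Entrez Gene 830; chromosome 7, 116811070 to 116922049, plus strand), the other alpha subunit, had 107 and 75.0 TPM in siNT, 70.25 and 191 TPM in siHOXA-AS3, and 85.7 and 90.2 TPM in siHOXB-AS3. For both subunits the siHOXA-AS3 libraries lay on opposite sides of the siNT libraries. The log2 differences of siHOXA-AS3 from siNT were 0.12 (standard error 0.189) for CAPZA1 and 0.50 (standard error 0.405) for CAPZA2. They changed sign between the libraries, from 0.34 with replicate 2 alone to -0.14 with replicate 1 alone for CAPZA1, and from 1.02 to -0.32 for CAPZA2. The alpha subunits thus showed no fall common to both libraries like that of CAPZB. In siHOXB-AS3 the log2 differences from siNT were 0.12 (95% interval -0.33 to 0.57) and 0.05 (95% interval -0.91 to 1.01).

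The summed alpha subunits stood at 1.15 and 1.01 times the beta subunit in siNT, 2.59 and 5.98 times in siHOXA-AS3, and 1.10 and 1.11 times in siHOXB-AS3, all as ratios of TPM. The siHOXA-AS3 ratios were above the other 4, and the distance between them followed the alpha subunits, whose summed level was 178 and 351 TPM. The siHOXB-AS3 ratio of 1.11 ± 0.0089 (SD, n = 2) lay within the siNT range (1.08 ± 0.0984), with p = 1.0 in a 2-sided exact permutation test, in which 2 libraries against 2 cannot give less than 0.333.

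CAPG (Entrez Gene 822; chromosome 2, 85394748 to 85418432, minus strand), the capping protein of the gelsolin family, had 65.9 and 83.0 TPM in siNT, 85.9 and 59.0 TPM in siHOXA-AS3, and 60.6 and 58.2 TPM in siHOXB-AS3. Its siHOXA-AS3 libraries spanned the siNT libraries. In TPM both libraries of the HOXB-AS3 knockdown were below siNT, and on normalized counts the groups overlapped, with a log2 difference of -0.23 (95% interval -0.85 to 0.40, adjusted p = 0.80).

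ACTB (Entrez Gene 60; chromosome 7, 5527147 to 5563784, minus strand), beta actin, was the most abundant of the 10 genes. It took 1.08% to 1.87% of all counts in a library. The study normalised its qRT-PCR to actin. Its level was 9579.7 and 9694 TPM in siNT, 15576 and 12669.6 TPM in siHOXA-AS3, and 9068 and 8939 TPM in siHOXB-AS3. Both siHOXA-AS3 libraries were above the other 4. The log2 difference of siHOXA-AS3 from siNT was 0.55 (standard error 0.161), 0.73 with replicate 1 alone and 0.34 with replicate 2 alone, and its rank was 803 from the highest. In siHOXB-AS3 the log2 difference from siNT was -0.01 (95% interval -0.39 to 0.38, adjusted p = 1.0), with TPM slightly below both siNT libraries and normalized counts overlapping.

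ACTG1 (Entrez Gene 71; chromosome 17, 81509971 to 81523847, minus strand), gamma actin, had 3737 and 3969 TPM in siNT, 7292 and 4469 TPM in siHOXA-AS3, and 3509.7 and 3138 TPM in siHOXB-AS3. Its siHOXA-AS3 libraries were above the other 4, replicate 2 by a small margin. The log2 difference of siHOXA-AS3 from siNT was 0.61 (standard error 0.254), with 0.96 for replicate 1 alone and 0.16 for replicate 2 alone. In siHOXB-AS3 it was -0.12 (95% interval -0.73 to 0.48, adjusted p = 0.90). The ratio of gamma to beta actin in TPM was 0.390 and 0.409 in siNT, 0.468 and 0.353 in siHOXA-AS3, and 0.387 and 0.351 in siHOXB-AS3. The siHOXA-AS3 ratios spanned the siNT ratios. The siHOXB-AS3 ratio (0.369 ± 0.0255, SD, n = 2) was below both siNT libraries (0.400 ± 0.0137), as was the sum of the actins (12327 ± 354 against 13490 ± 245 TPM), each with p = 0.333 in the exact permutation test, the smallest it can give here. On the log2 scale the siHOXB-AS3 to siNT ratio of the sum was -0.13 in TPM and 0.069 in expected counts scaled by neither length nor depth. The depth differed between the libraries, so no change of direction is read from the unscaled counts. The sum was 22869 and 17138.5 TPM in the siHOXA-AS3 libraries, both above the other 4.

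Beta and gamma actin are encoded by closely related genes whose proteins differ mainly at the start, and the first 30 coding bases are shown because reads from the remainder are harder to tell apart. Differing bases are in capitals (GENCODE v29 transcripts).
ACTB: atggaTgaTgaTatcgccgcgctCgtcGtC
ACTG1: atggaAgaAgaGatcgccgcgctGgtcAtT
Over the whole coding sequence of 1125 bases, 1027 were identical (91.3%), and the longest identical run was 59 bases. Among the 10 genes, ACTB and ACTG1 were those whose expected counts were fractional in all 6 libraries, where RSEM divided reads between sequences. Which sequences shared these reads was not examined. The split between the actins is therefore uncertain, and so is their sum where reads were shared with other sequences such as related pseudogenes. The coding sequences of CAPZA1 and CAPZA2 were 77.6% identical, and their counts were whole in all 6 libraries. The CArG box, the motif of serum response factor, was searched in the 12 RefSeq promoters of the 10 genes (GRCh38.p14, 250 bases before to 50 after the start; the motif is its own reverse complement). The ACTG1 promoter held it, with its first base 94 bases before the start, while 1.29% of all promoters do.
ACTG1, chr17:81512874-81512903 (GRCh38.p14, minus strand): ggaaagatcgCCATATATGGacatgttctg
A match is not a bound site, and no match says only that these letters were not in the window.

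CFL1 (Entrez Gene 1072; chromosome 11, 65823022 to 65862026, minus strand), cofilin, which severs and disassembles old filaments, had 1206 and 1303 TPM in siNT, 1689 and 1229 TPM in siHOXA-AS3, and 1147 and 1194 TPM in siHOXB-AS3. PFN1 (Entrez Gene 5216; chromosome 17, 4945652 to 4949061, minus strand), profilin, had 1031 and 1168 TPM in siNT, 1556 and 936 TPM in siHOXA-AS3, and 922 and 857 TPM in siHOXB-AS3. For both genes siHOXA-AS3 replicate 1 was above the siNT libraries and replicate 2 was not. TMSB10 (Entrez Gene 9168; chromosome 2, 84905625 to 84906675, plus strand), thymosin beta 10, which sequesters monomers, had 3851 and 3553 TPM in siNT, 5399 and 4043 TPM in siHOXA-AS3, and 3335 and 3566 TPM in siHOXB-AS3. Its siHOXA-AS3 libraries were both above the other 4, with a log2 difference from siNT of 0.32 (standard error 0.194) that was 0.57 for replicate 1 alone and 0.03 for replicate 2 alone. TWF1 (Entrez Gene 5756; chromosome 12, 43793723 to 43806375, minus strand), twinfilin, which binds monomers and capping protein, had 84.2 and 61.2 TPM in siNT, 55.5 and 133 TPM in siHOXA-AS3, and 64.6 and 69.8 TPM in siHOXB-AS3. Its siHOXA-AS3 libraries lay on opposite sides of siNT.

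In siNT the order of levels per length was ACTB, ACTG1, TMSB10, CFL1, PFN1, CAPZB, CAPZA1, CAPZA2, CAPG and TWF1. The siNT libraries of neighbours overlapped for ACTG1 and TMSB10, for CAPZA2 and CAPG, and for CAPG and TWF1, so these pairs were not ordered beyond their spread. Profilin stood 5.56-fold above CAPZB, the widest step between neighbours.

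The difference between the siHOXA-AS3 libraries differed between the genes and ran with their GC content. Replicate 1 exceeded replicate 2 on the log2 scale of counts scaled to library size (CPM) by 0.83 for PFN1, 0.79 for ACTG1, 0.66 for CAPG, 0.55 for CFL1, 0.53 for TMSB10, 0.39 for ACTB and 0.21 for CAPZB, whose transcripts have 53.2% to 59.7% GC. It was below replicate 2 for CAPZA1 (-0.49), TWF1 (-1.17) and CAPZA2 (-1.35), at 37.3% to 42.4% GC. Pearson's r between GC content and this difference was 0.956 over the 10 genes, which share the same libraries, and 0.775 over 12681 genes. In siNT it was -0.893 over the 10 genes, with smaller differences (-0.39 to 0.44), and in siHOXB-AS3 0.550 (-0.10 to 0.18). CAPZB had the smallest difference between the siHOXA-AS3 libraries of the 10 genes. With a GC trend removed from every library, the log2 difference of siHOXA-AS3 from siNT was -1.78 for CAPZB (standard error 0.0951), 0.60 for ACTB (0.103) and 0.63 for ACTG1 (0.126), while for CAPZA2 it was 0.36 and for TWF1 0.17.

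**Figure D2:**
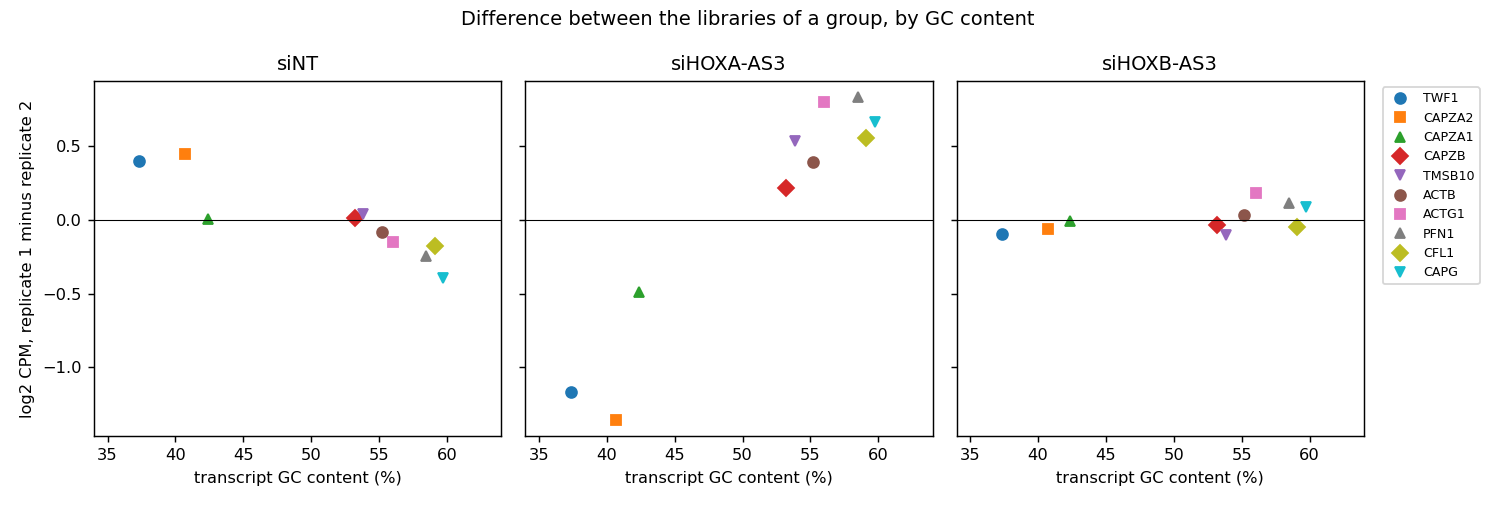
Difference between replicate 1 and replicate 2 in log2 CPM (vertical axis) against transcript GC content in percent (horizontal axis) for the 10 genes in siNT, siHOXA-AS3 and siHOXB-AS3. In siHOXA-AS3 the genes run from -1.35 (CAPZA2) and -1.17 (TWF1) at low GC to 0.83 (PFN1) at high GC.

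Over all genes, the comparison of siHOXA-AS3 with siNT called 0 of 13034 (0% called by edgeR at an adjusted p of 0.05; 6.16% had an unadjusted p under 0.05, 2.75% higher and 3.41% lower), and DESeq2 called 51 (0.391%). None of the 10 genes was called by edgeR, 3 had an unadjusted p under 0.05, and DESeq2 called 1, CAPZB. The set was chosen on this comparison, so nothing is read from these counts. ACTB, ACTG1 and TMSB10 had siHOXA-AS3 libraries above both siNT libraries in TPM and CAPZB had them below, beside 12.2% and 15.8% of all tested genes (28% in either direction).

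The comparison of siHOXB-AS3 with siNT was not used to choose the set, and shares the siNT libraries with the comparison above. None of the 10 genes was called by edgeR, where 0.0614% of all tested genes were (8 genes). None had an unadjusted p under 0.05, as 12.2% of all genes did, and DESeq2 called none of the 10 (2.66% of all genes). The 10 log2 differences ran from -0.23 (CAPG) to 0.12 (CAPZA1), with a median of -0.01 beside -0.01 over all tested genes. Their adjusted p-values in edgeR's test lay between 0.80 and 1.0. The 95% intervals were narrowest for CAPZB (-0.35 to 0.37) and widest for CAPZA2 (-0.91 to 1.01). These intervals share 1 estimate of the spread with the siHOXA-AS3 libraries. With just siHOXB-AS3 and siNT fitted, the standard error was 0.0885 for CAPZB (0.153 with all libraries) and 0.115 for CAPZA2 (0.405), and edgeR called 2995 genes but again none of the 10, with PFN1 at the lowest adjusted p (0.10, log2 difference -0.22). In TPM, no siHOXB-AS3 library reached the siNT range for CAPG, ACTB, ACTG1, CFL1 and PFN1, 5 of 10 genes beside 39.3% of all tested genes that were lower without overlap (60.8% in either direction). On normalized counts PFN1 alone of these 5 had groups that did not overlap, so this order depended on the scaling.

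**Figure D3:**
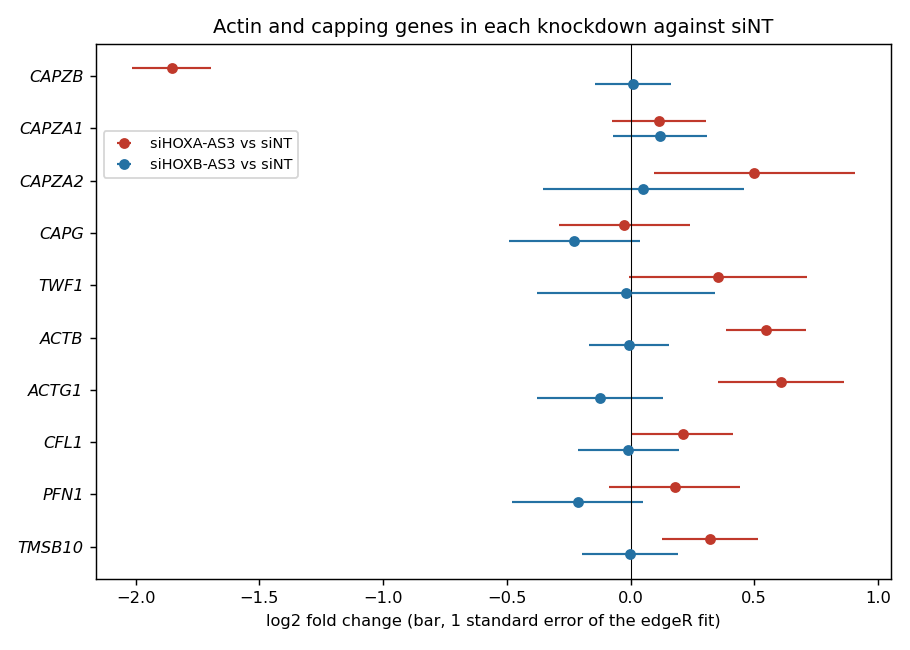
Log2 fold change of each gene in siHOXA-AS3 (red) and siHOXB-AS3 (blue) against siNT from the edgeR fit, with bars of 1 standard error. CAPZB stands at -1.85 in siHOXA-AS3 and 0.01 in siHOXB-AS3, and all 10 siHOXB-AS3 values lie between -0.23 and 0.12.

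Between the knockdowns, CAPZB was 1.86 higher in siHOXB-AS3 on the log2 scale (standard error 0.159) and ACTB 0.55 lower (standard error 0.161), which are descriptions because both were chosen on the siHOXA-AS3 libraries. Of the other 8 genes, none was called by edgeR, beside 1.57% of all tested genes (204; 0.629% higher and 0.936% lower). DESeq2 also called none of the 8, beside 6.08%, and 1 of them had an unadjusted p under 0.05, beside 18.4% (7.9% higher and 10.5% lower). ACTG1 was furthest apart, with a log2 difference of -0.73 (standard error 0.255, 95% interval -1.34 to -0.13), an unadjusted p of 0.0244 and an adjusted p of 0.20, and its groups did not overlap. With the GC trend removed its log2 difference was -0.66 (standard error 0.126) and its adjusted p in edgeR's test 0.0046. It was also called with no count filter (adjusted p = 0.046 in edgeR), but not in the other alternatives that keep all 6 libraries. These p-values rest on the siHOXA-AS3 libraries that chose the set, and ACTG1 followed ACTB over the libraries (r = 0.957). They are therefore not independent of the choice. With only siHOXA-AS3 replicate 2 the log2 difference of ACTG1 was -0.28 and with only replicate 1 it was -1.08, so its size depended on the library. The siHOXB-AS3 libraries of CFL1, PFN1 and TMSB10 were also below both siHOXA-AS3 libraries in TPM, as for 27.8% of all tested genes (16.9% were higher and 44.7% did not overlap in either direction), but their normalized counts overlapped and their adjusted p-values were 0.44 to 0.63. For CAPZA1 the log2 difference was 0.00 (95% interval -0.45 to 0.45).

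**Figure D4:**
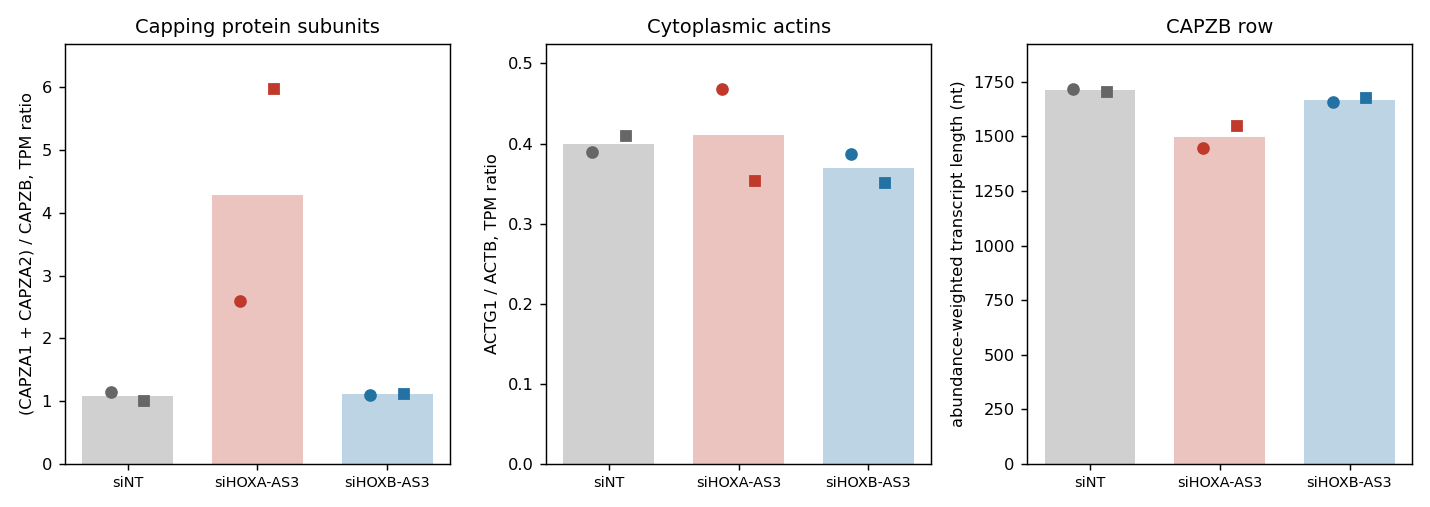
Ratio of the summed alpha subunits to CAPZB, ratio of ACTG1 to ACTB (both in TPM) and abundance-weighted transcript length of CAPZB in nt, per library, with circles for replicate 1, squares for replicate 2 and bars for means. The subunit ratio is 2.59 and 5.98 in siHOXA-AS3 and 1.01 to 1.15 elsewhere, and the CAPZB length is 1448 and 1546 nt in siHOXA-AS3 and at least 1656 nt elsewhere.

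The genes whose log2 CPM most resembled CAPZB over the 6 libraries, among 10959 compared, were KIF20A, a mitotic kinesin (Pearson r = 0.997), MCCC2, a subunit of methylcrotonoyl-CoA carboxylase (0.994), and KAT7, a histone acetyltransferase (0.991). This r compares the pattern and not the size. The log2 differences of siHOXA-AS3 from siNT were -0.56, -0.83 and -0.29 for these genes, against -1.85 for CAPZB. MCCC2 had 104 and 104 TPM in siNT, 57.5 and 60.2 TPM in siHOXA-AS3, and 104 and 104 TPM in siHOXB-AS3. The correlations describe the same 6 libraries, and 108 genes had an r above 0.95. CAPZA1 and CAPZA2 had r = -0.18 and -0.41 with CAPZB. Closest to ACTB were TMEM176A (0.994), EMC10, a subunit of the ER membrane protein complex (0.994), and MSN, moesin, which ties actin to the plasma membrane (0.993). MSN had 85.3 and 92.3 TPM in siNT, 160.0 and 124 TPM in siHOXA-AS3, and 83.6 and 87.7 TPM in siHOXB-AS3. ACTG1 had r = 0.957 with ACTB, and 46 genes were above 0.95.

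Of 122 other genes of the actin pathway, 95 had enough counts to test. In siHOXB-AS3 against siNT edgeR called none of the 95 (0.0614% of all tested genes), DESeq2 called 5 (2.66%), and 1 was higher and 8 were lower at an unadjusted p of 0.05 (4.42% and 7.75% of all tested genes). Their median log2 difference was -0.00, beside -0.01 over all genes. The muscle actins and ACTBL2 were nearly absent, with ACTA2, the only one tested, at 0.37 to 1.05 TPM. Of the other capping genes and capping regulators, 12 of 19 were tested. The outermost with a mean of at least 10 TPM were MTPN, myotrophin, which binds capping protein and whose row joins several genes (0.27, standard error 0.167), and TMOD3, which caps pointed ends (-0.66, standard error 0.214, adjusted p = 0.28). TMOD3 had 31.8 and 27.5 TPM in siNT, 26.2 and 40.2 TPM in siHOXA-AS3, and 17.1 and 17.9 TPM in siHOXB-AS3, so its siHOXB-AS3 libraries were below the other 4. In siHOXB-AS3, 39.3% of all tested genes were below siNT in TPM without overlap.

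Of 24 other monomer-binding and turnover genes 17 were tested. CFL2, the second cofilin, had 10.4 and 8.70 TPM in siNT, 10.3 and 18.5 TPM in siHOXA-AS3, and 20.8 and 22.4 TPM in siHOXB-AS3, a log2 difference of siHOXB-AS3 from siNT of 1.27 (standard error 0.276, adjusted p = 0.14 in edgeR, 0.0016 in DESeq2). WDR1, which helps cofilin to take filaments apart, had 192 and 191 TPM in siNT, 197 and 172 TPM in siHOXA-AS3, and 106 and 109 TPM in siHOXB-AS3, a log2 difference of -0.75 (standard error 0.155, adjusted p = 0.13 in edgeR, 0.031 in DESeq2). They were picked as the highest and the lowest of the list in this comparison with a mean of at least 10 TPM. Both had siHOXB-AS3 libraries outside the siNT range, beside 60.8% of all tested genes (21.6% higher and 39.3% lower). Neither was called by edgeR. CFL1, the major cofilin, had a log2 difference of -0.01 in the same comparison. In the gelsolin family, 6 of 7 were tested, with a median of -0.36 in siHOXB-AS3 against siNT. It was -0.20 without siNT replicate 2 and -0.16 with just the groups compared, and 2 of the 6 genes were nearly absent (VILL at 0.21 and AVIL at 0.46 TPM on average). The outermost above 10 TPM were FLII (0.41) and GSN, gelsolin (-0.55).

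The 10 genes of the ARP2/3 complex, which starts branches on existing filaments, were all tested and none was called in any comparison. Their median log2 difference was 0.27 in siHOXA-AS3, beside 0.01 over all genes, and 0.06 in siHOXB-AS3. In siHOXA-AS3 all 10 values were above 0, as were 66 of the 95 tested pathway genes. These values average 2 libraries that could lie on opposite sides of siNT. ACTR2 had 121 and 101 TPM in siNT, and 88.6 and 159 TPM in siHOXA-AS3. The siHOXA-AS3 median stayed between 0.21 and 0.30 under the alternatives and with any library left out. ACTR3B, at 10.9 and 10.4 TPM in siNT, 13.8 and 15.5 TPM in siHOXA-AS3, and 11.7 and 13.6 TPM in siHOXB-AS3, and ACTR2 were outermost in siHOXB-AS3 (0.34 and -0.28). Of the nucleation promoters 14 of 17 were tested and none was called, with a median of 0.18 in siHOXA-AS3 (0.097 to 0.21 with a library left out) and 0.01 in siHOXB-AS3. The outermost in siHOXB-AS3 were ABI1 (0.21) and BRK1 (-0.23), both of the WAVE complex. BRK1 had 174 and 175 TPM in siNT, 130 and 133 TPM in siHOXA-AS3, and 139 and 140 TPM in siHOXB-AS3, so both knockdowns lay below siNT. Of all tested genes, 15.8% were below siNT without overlap in siHOXA-AS3 and 39.3% in siHOXB-AS3.

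Among formins and ENA/VASP proteins, which lengthen filaments at barbed ends, 13 of 17 were tested, with a median of -0.35 in siHOXB-AS3 against siNT (-0.38 to -0.23 with a library left out). VASP, which competes with capping at barbed ends, had 207 and 217 TPM in siNT, 228 and 229.9 TPM in siHOXA-AS3, and 96.4 and 99.1 TPM in siHOXB-AS3. Its siHOXB-AS3 libraries were thus below all others, and it was the only one of the 95 genes called between the knockdowns, beside 1.57% of all tested genes, with a log2 difference of -1.13 in siHOXB-AS3 against siHOXA-AS3 (standard error 0.144, adjusted p = 0.029 in edgeR's test). Against siNT it was -1.03 (standard error 0.143, adjusted p = 0.077 in edgeR, 3.6e-04 in DESeq2). The highest value of the list with the same minimum level was DIAPH1 (0.25). The call between the knockdowns did not hold when either siHOXB-AS3 library (adjusted p = 0.38 and 0.49) or either siNT library (0.12 each) was left out, nor with the replicate block (0.093) or just the groups compared (0.12), while the log2 difference stayed between -1.17 and -1.08.

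The 9 dynactin genes, whose filament of ARP1 is capped by capping protein, had medians of 0.03 and -0.03 in siHOXA-AS3 and siHOXB-AS3, and none was called. Both medians changed sign with a library left out (-0.16 to 0.065 and -0.077 to 0.0098). DCTN6 (0.17) and ACTR1B (-0.24) were outermost in siHOXB-AS3. Of 14 bundling and crosslinking genes 13 were tested and none was called, with medians of 0.13 in siHOXA-AS3 and 0.12 in siHOXB-AS3. With a library left out these ran from -0.21 to 0.39 and from 0.026 to 0.26, so the siHOXA-AS3 median had no stable direction. ACTN4 (0.42) and ACTN1 (-0.29), the non-muscle alpha-actinins, were outermost in siHOXB-AS3. In these bulk libraries, fewer cells that express a gene and less RNA of it per cell cannot be told apart.

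**Figure D5:**
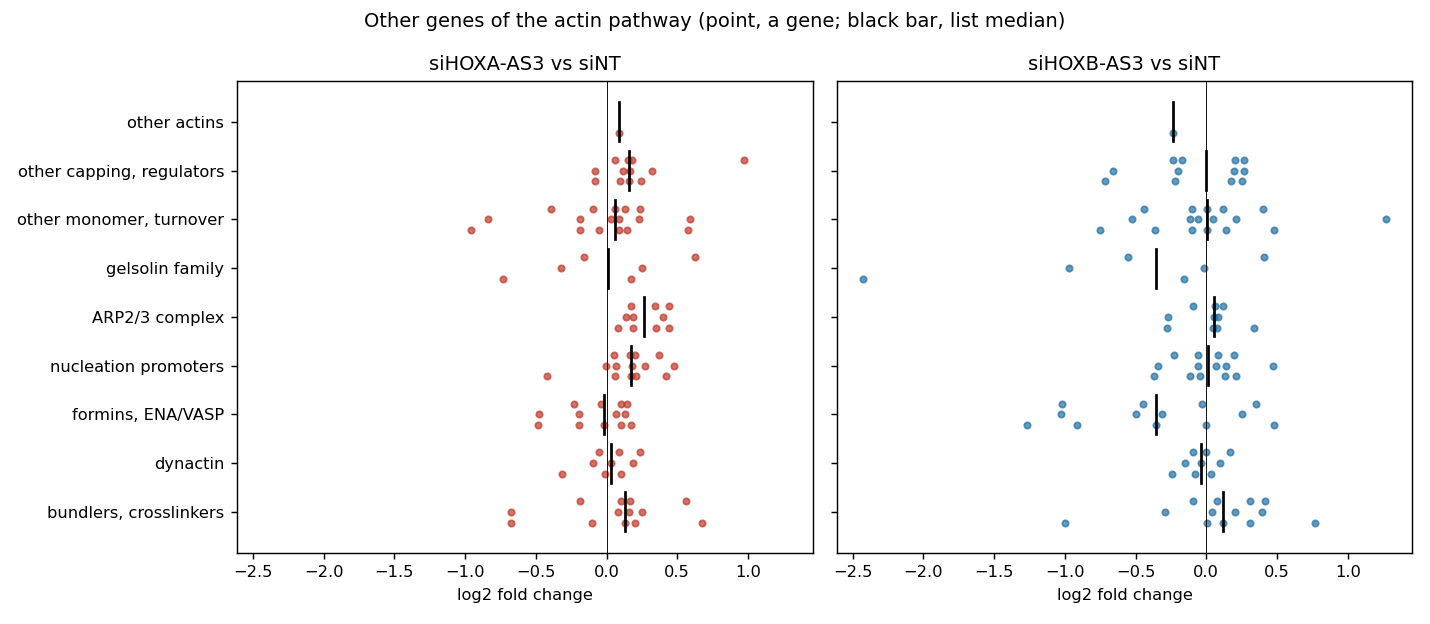
Log2 fold change of each tested gene (points) of 9 other lists of the actin pathway in siHOXA-AS3 and siHOXB-AS3 against siNT, with the list median as a black bar. The 10 ARP2/3 genes all lie above 0 in siHOXA-AS3 (median 0.27), as do 66 of all 95 genes shown, and VASP lies at -1.03 in siHOXB-AS3.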

How the data were processed

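RNA-seq of HT-29 cells (2 libraries for each of siNT, siHOXA-AS3 and siHOXB-AS3) was used. The authors made polyA libraries with the SENSE mRNA-Seq kit and quantified them with RSEM on RefSeq genes. The submitters' processing notes name hg19. For the aligner and for strandedness, nothing is given in the sources used here. Deposited values were expected counts per gene (not normalized), TPM and FPKM; the deposited TPM are scaled by the authors to a fixed sum, the deposited FPKM by length and depth. Expected counts were rounded and tested with edgeR 4.0.16 under R 4.3.3 (filterByExpr, minimum count 10, TMM, robust quasi-likelihood fit of all 6 libraries), with Benjamini-Hochberg adjustment over 13034 genes and a threshold of 0.05. The members and the lists were chosen with earlier results of these data known. Named genes were the 10 members, for each list those called in a siHOXB-AS3 comparison and the highest and lowest siHOXB-AS3 value with a mean of at least 10 TPM, and the 3 genes most like CAPZB and ACTB (mean FPKM of at least 1). GENCODE v29 (GRCh38) gave positions, sequences and GC content. The calling step was tested on simulated data. Alternatives were DESeq2 1.42.0, RLE size factors, library totals, no count filter, a fit of just the groups in question, a replicate block, limma-trend (limma 3.58.1) on log2(FPKM + 0.1), a GC trend removed, and each library left out.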

Additional observations from a re-analysis of the deposited data

Results flagged for a closer look

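Each item here is a gene whose values differed between the knockdowns. CAPZB differed by 1.86 on the log2 scale between siHOXB-AS3 and siHOXA-AS3, higher in siHOXB-AS3 in 2 of 2 libraries. It was chosen on the siHOXA-AS3 libraries, so this is a description. VASP differed by -1.13 on the log2 scale in the same comparison (adjusted p = 0.029 in edgeR), lower in 2 of 2 siHOXB-AS3 libraries, a call lost with the replicate block, with just the groups compared, and with either siNT or either siHOXB-AS3 library left out (adjusted p in edgeR 0.093 to 0.49). ACTB (-0.55) and ACTG1 (-0.73) had both siHOXA-AS3 libraries above and both siHOXB-AS3 libraries below the siNT libraries in TPM. For ACTB this is a description. For ACTG1 the difference between the knockdowns did not pass the threshold in edgeR (adjusted p = 0.20). It also rests on the siHOXA-AS3 libraries that chose the set. On normalized counts the siHOXB-AS3 and siNT libraries of both actins overlapped.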

How the results depend on the processing

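In siHOXB-AS3 against siNT none of the 10 genes was called under any of the 14 alternatives (140 values, lowest adjusted p by edgeR, DESeq2 or limma 0.10). Of the 140 values 18 changed direction, and these lay between -0.15 and 0.19. The log2 differences that did so were -0.037 for CAPZB with library totals, 0.0036 for ACTB, 0.00093 for CFL1 and 0.0056 for TMSB10 with no count filter, 0.083, 0.10 and 0.071 for the same 3 genes with the GC trend removed, and 0.00013 for TMSB10 under the replicate block. With a library left out the values ran from -0.15 to 0.29 for CAPZA2, -0.0047 to 0.029 for CAPZB, -0.048 to 0.038 for ACTB, -0.097 to 0.086 for CFL1, -0.20 to 0.19 for TWF1 and -0.055 to 0.050 for TMSB10.

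Between the knockdowns CAPZA1 was -0.012 with DESeq2, -0.012 with RLE size factors, -0.029 with library totals, -0.016 with no filter, -0.0064 with just the groups compared and -0.016 with limma-trend. With a library left out the ranges that crossed 0 were -0.22 to 0.26 for CAPZA1, -0.97 to 0.37 for CAPZA2, -0.50 to 0.17 for CAPG, -0.47 to 0.088 for CFL1, -0.75 to 0.084 for PFN1, -0.84 to 0.32 for TWF1, -0.22 to 0.0063 for ACTR3B, -0.75 to 0.0045 for ACTR2, -0.16 to 0.034 for ABI1, -0.43 to 0.88 for DCTN6, -0.28 to 0.54 for ACTR1B and -0.18 to 0.61 for ACTN4.

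Counts of calls moved most. In siHOXA-AS3 against siNT the calls over all genes went from 0 to 51 with DESeq2, 24 with no filter, 1 with limma-trend and 692 with the GC trend removed, and to 0 to 4031 with a library left out (the most without siHOXA-AS3 replicate 1). Calls among the 10 genes went from 0 to 1 with DESeq2, 1 with no filter and 3 with the GC trend removed (0 to 6 with a library left out), and among the 95 pathway genes from 0 to 7 with the GC trend removed (0 to 36). In siHOXB-AS3 against siNT all genes went from 8 to 347 with DESeq2, 265 with no filter, 2995 with just the groups compared and 2155 with the GC trend removed (0 to 3035), and pathway genes from 0 to 5, 5, 24 and 18 (0 to 25). Between the knockdowns all genes went from 204 to 792 with DESeq2, 706 with no filter, 2 with just the groups compared, 93 with limma-trend and 3746 with the GC trend removed (0 to 5027). Calls among the 10 genes went from 1 to 2 with no filter, 0 with just the groups compared and 3 with the GC trend removed (0 to 8), and pathway genes from 1 to 7 with DESeq2, 5 with no filter, 0 with just the groups compared and 24 with the GC trend removed (0 to 43). The causes of these moves were not tested. A lone library was assumed to vary like the other groups.

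With the replicate block the calls over all genes were 0 in siHOXB-AS3 against siNT and 10 between the knockdowns, and 0 of the pathway genes was called there. The replicate numbers are only a shared number, since the correlations of the replicate 1 minus replicate 2 differences were -0.35, -0.14 and 0.15 between the groups. The siHOXB-AS3 to siNT ratio of the summed actins, -0.13 on the log2 scale in TPM, was -0.085 in FPKM. In expected counts scaled by neither length nor depth it was 0.069, a value that also carries the difference in depth. For the subunit ratio the log2 value of siHOXB-AS3 over siNT was -0.052 to 0.14 with a library left out. The 95% intervals are those of the fit of all 6 libraries and widen with the spread of the siHOXA-AS3 libraries.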
